A study of Arabidopsis thaliana with 24 samples.

Results

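Transcript levels of 4 nuclear genes for proteins of the plastid ribosome were compared between the sut2 mutant of Arabidopsis thaliana and its wild type. The genes were AT1G29070 (protein L34) and AT4G01310 (L5) for the large subunit, and AT3G13120 (S10) and AT1G64510 (S6) for the small subunit. Each was read by 1 array probe that carried the name of exactly 1 gene, out of 3439 probes in all, of which 692 carried exactly 1 gene name. They were chosen by name from the plastid ribosomal proteins on the array when their differences between mutant and wild type were already known. Those differences are therefore given as a description, with their errors and without a p-value. The annotation used here held locus names only, so the protein names of the 4 genes are background knowledge of the loci.

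Plastids translate their own genome on ribosomes of bacterial type, made of a large and a small subunit. Some of the ribosomal proteins are encoded in the plastid genome, but most are encoded in the nucleus, made in the cytosol and imported. L5 binds the 5S ribosomal RNA in the bacterial ribosome, and L34 is a small protein of the same subunit. S6 and S10 belong to the small subunit, where bacterial S6 binds the platform of the particle and S10 its head. In leaves these ribosomes make core subunits of the photosystems and the large subunit of Rubisco.

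The mutant columns came from sut2 plants, which the labels describe as missing a sucrose transporter or sensor of the plasma membrane, and the wild type columns from plants with this protein. Both groups were of the Wassilevskija ecotype, and total RNA was used throughout. There were 12 columns of the mutant and 12 of the wild type, numbered 1 to 12 in each group. The labels used here give no tissue, age, growth conditions or source of each column, so the errors measure the spread between columns, which may be technical. No probe was named as SUT2, and none of 6 marker genes of root, flower, seed and phloem had a probe of its own, so neither the mutation nor the tissue could be checked.

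The deposited values were linear intensities without a stated unit, with column means between 0.959 and 1.05. Between 146 and 273 values per column were listed at 0. Column medians were 0.231 to 0.284 in the mutant and 0.338 to 0.425 in wild type, so the centre of the table was lower in every mutant column. For differences, intensities were put on the log2 scale with a floor, and all columns were given the same distribution (quantile normalization). On that scale the median difference of all probes, mutant minus wild type, was 0.10. Columns with consecutive numbers deviated together (12 pairs, r from 0.12 to 0.55). Each difference is therefore also given an error with consecutive numbers averaged to 6 values per group. Other pairs of columns within a group were not set beside these, so whether consecutive numbers share a source was not tested. No measure of background was used, so a dim value cannot be told from background.

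AT1G29070, the gene for L34, was lower in the mutant in every comparison of columns. Its intensity in the mutant was 0 in 3 columns (numbers 3, 4 and 6) and 0.0478 to 0.132 in the other 9, with a median of 0.0722 over all 12. In wild type it lay between 0.265 and 1.12, with a median of 0.416. The groups did not overlap, since the highest mutant column stayed below the lowest wild type column. The mean log2 value was -4.25 ± 1.57 in the mutant and -1.48 ± 0.69 in wild type (SD, n = 12 columns each). The difference was -2.77 ± 0.47 (SE), with a 95% interval of -3.75 to -1.80, or a level 6.84-fold lower in the mutant. The mutant was lower at all 12 numbers, with log2 differences between -4.61 and -0.81. The 3 values listed at 0 set part of this size, because they enter at the floor. Without them the difference was -1.90 ± 0.27, or 3.73-fold lower, and with a higher floor at the 5th percentile of positive values it was -2.20 ± 0.27. The SE was 0.55 with consecutive numbers averaged. Of the 3439 probes, 8 had a log2 difference below the -2.77 of AT1G29070. This rank includes the values at the floor and was not computed without them. Since the gene was chosen with its difference known, nothing is read from the rank.

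AT3G13120, the gene for S10, was also lower in the mutant and had no value listed at 0. Its intensity lay between 0.178 and 0.385 in the mutant, with a median of 0.236, and between 0.454 and 1.62 in wild type, with a median of 0.796. The deposited intensities of the groups did not overlap, but the normalized values did. The mean log2 value was -1.75 ± 0.41 in the mutant and -0.42 ± 0.64 in wild type (SD, n = 12 columns each). The difference was -1.33 ± 0.22 (SE, 0.30 with consecutive numbers averaged), with a 95% interval of -1.78 to -0.88, or 2.51-fold lower in the mutant. All 12 numbers were lower in the mutant, with log2 differences between -2.63 at number 11 and -0.05 at number 3. The floor had no part in this value, which was -1.33 with either floor.

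**Figure D1:**
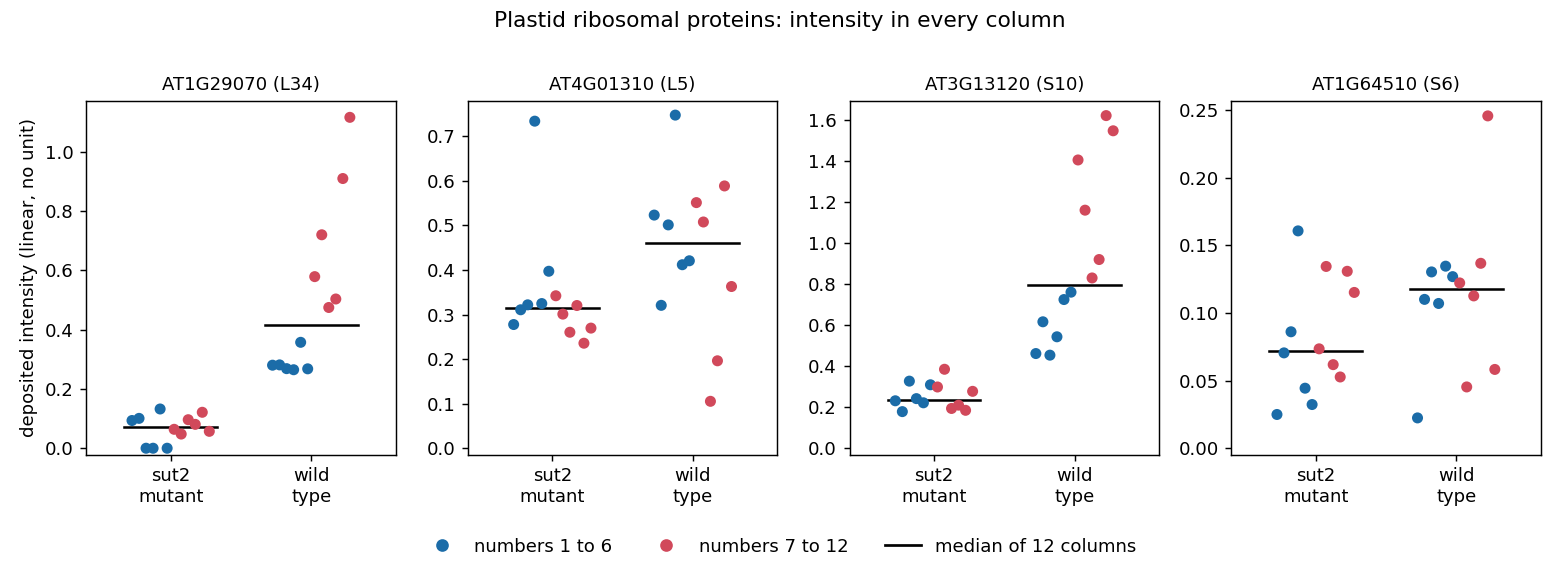
Deposited intensity (linear scale, no stated unit) of the 4 transcripts in every column, sut2 mutant at the left and wild type at the right of each panel. Points are columns coloured by number and bars are medians of 12 columns. The mutant and wild type columns are apart for AT1G29070 (medians 0.0722 and 0.416) and AT3G13120 (0.236 and 0.796), and overlap for AT4G01310 and AT1G64510.

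AT4G01310, the gene for the other large-subunit protein, L5, showed no such separation. Its intensity lay between 0.236 and 0.734 in the mutant, with a median of 0.316, and between 0.105 and 0.748 in wild type, with a median of 0.461. All 12 mutant columns fell inside the wild type range. The single high mutant column was number 4, and the wild type column of that number was also the highest of its group. The lowest wild type columns were numbers 9 and 10, at 0.105 and 0.196. The log2 difference was 0.23 ± 0.24 (SE, 0.30 with consecutive numbers averaged), with a 95% interval of -0.26 to 0.71. The mutant was higher at 9 numbers and lower at 3.

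AT1G64510, the gene for the small-subunit protein S6, had low intensities in both groups. They lay between 0.0249 and 0.161 in the mutant, with a median of 0.0719, and between 0.0224 and 0.246 in wild type, with a median of 0.117. All 12 mutant columns again lay inside the wild type range. The log2 difference was 0.05 ± 0.37 (SE, 0.39 with consecutive numbers averaged), and its 95% interval of -0.71 to 0.80 leaves room for a change in either direction. The mutant was lower at 6 numbers and higher at 6, with differences between -1.67 and 1.74. This transcript had the widest interval among the 3 genes without values at 0.

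**Figure D2:**
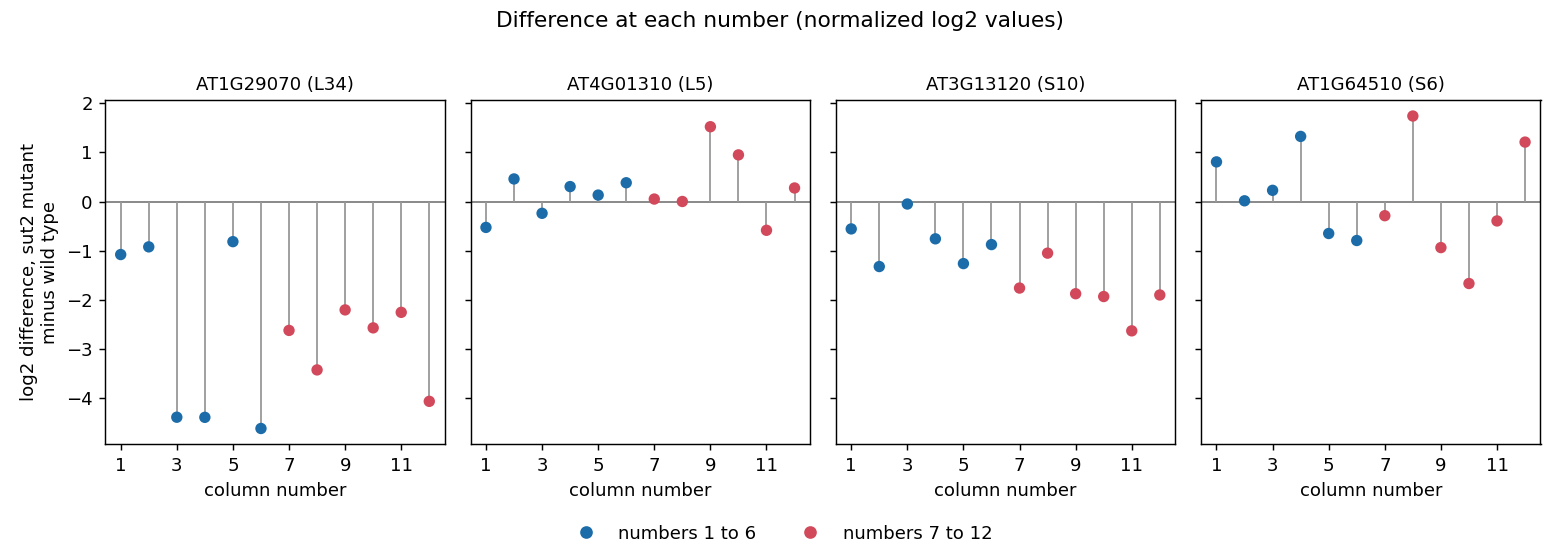
Difference in normalized log2 value, sut2 mutant minus wild type, at each column number for the 4 transcripts, coloured by division of the numbers. AT1G29070 and AT3G13120 lie below 0 at all 12 numbers, while AT4G01310 lies below 0 at 3 and AT1G64510 at 6.

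In the fit over all probes (limma, Benjamini-Hochberg adjustment, threshold 0.05), AT1G29070 and AT3G13120 were called lower and the other 2 genes were not called. Among all probes 15.9% were called lower and 34.8% were called in either direction. The same 2 genes were called lower with consecutive numbers averaged, where 7.68% of probes were called lower. Deposited intensities of the mutant lay wholly below those of wild type for these 2 of the 4 genes and for 5.5% of all probes. Since the genes were chosen with this comparison known, nothing is read from these counts.

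Leaving out the normalization lowered all 4 differences together with the median of all probes. Without normalization that median was -0.24, and it was 0.31 when columns were centred on their medians. AT1G29070 then had differences of -3.17 ± 0.46 and -2.63 ± 0.45, which relative to the median of all probes were -2.94 in both cases, against -2.88 with quantile normalization. AT3G13120 had -1.76 ± 0.21 and -1.22 ± 0.21, which relative to that median were -1.52 in both cases, against -1.43 with quantile normalization. For each gene the equality of these relative values is fixed by construction, because median centring only takes a constant off each column. It is therefore no agreement between separate scalings. AT4G01310 changed sign, from 0.23 to -0.27 ± 0.25 without normalization, where it stood at -0.03 relative to the median of all probes. AT1G64510 moved to -0.45 ± 0.35 without normalization, or -0.21 relative to that median. With cyclic loess, where the median of all probes was 0.06, the differences were -2.66 for AT1G29070, -1.30 for AT3G13120, 0.25 for AT4G01310 and -0.011 for AT1G64510. The direction given for L5 and S6 therefore depends on the scaling, whereas L34 and S10 were lower under each scaling tried.

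**Figure D3:**
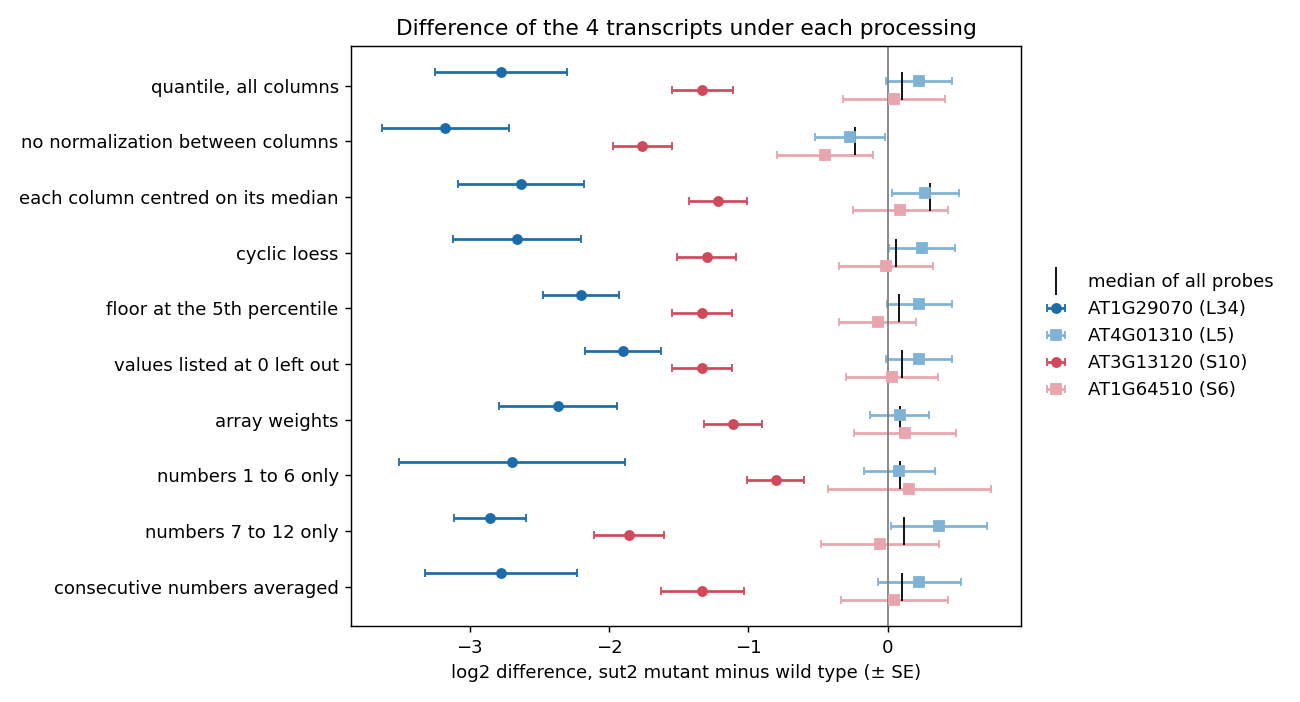
Log2 difference, sut2 mutant minus wild type, of the 4 transcripts (± SE) under 10 ways of processing the same table, with the median of all probes as a black tick. AT1G29070 stays between -3.17 and -1.90 and AT3G13120 between -1.86 and -0.80, and the other 2 genes lie around the median of all probes.

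Within each subunit there was 1 gene that was lower in the mutant and 1 near the median of all probes. The mean difference was -1.27 for the large-subunit pair (L34 and L5) and -0.64 for the small-subunit pair (S10 and S6). Taken number by number, the large-subunit mean minus the small-subunit mean was -0.63 ± 1.29 (SD over 12 numbers), and the large-subunit mean was the lower at 7 of 12. Without the values listed at 0 this gap was -0.19. With AT3G54210 (L17) added to the large subunit, the mean of its 3 genes was -0.81 and their median 0.12, against a mean and median of -0.64 for the small-subunit pair, so the order of the subunits depended on the summary used. Differences inside a subunit were larger than this gap. L34 minus L5 was -3.0 ± 1.53 (SD over 12 numbers), and L34 was the lower at all 12. S10 minus S6 was -1.38 ± 1.0, and S10 was the lower at all 12. Between the 2 lower transcripts, L34 minus S10 was -1.45 ± 1.73, and L34 was the lower at 9 of 12 numbers. Without the values listed at 0 this difference was -0.57, and that of L34 minus L5 was -2.12. Between the other 2, L5 minus S6 was 0.18 ± 1.41, with each the higher at 6 numbers.

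The wild type levels of L34 and S10 were not even over the numbers. Numbers 7 to 12 and numbers 1 to 6 were set apart, a division known from earlier results of this table, and the labels do not say what divides them. The mean intensity of AT1G29070 in wild type was 0.718 ± 0.253 over numbers 7 to 12, against 0.287 ± 0.035 over numbers 1 to 6 (SD, n = 6 columns), a ratio of 2.50. That of AT3G13120 in wild type was 1.25 ± 0.33 over numbers 7 to 12, against 0.593 ± 0.131 over numbers 1 to 6, a ratio of 2.10. The same ratio in wild type was 0.790 for AT4G01310, 1.14 for AT1G64510 and 1.0 for the median probe. In the mutant AT3G13120 stayed level, at 0.258 ± 0.077 over numbers 7 to 12, against 0.252 ± 0.056 over numbers 1 to 6. The mutant values of AT1G29070 were 0.0478 to 0.121 over numbers 7 to 12, against 0 to 0.132 over numbers 1 to 6, where all its values at 0 lay.

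The difference between mutant and wild type was accordingly set beside the division of the numbers. As this division was known from earlier results of the same table, the adjusted p-values of its interaction are a description only. The log2 difference of AT3G13120 was -1.86 within numbers 7 to 12, against -0.80 within numbers 1 to 6. This gap of -1.05 ± 0.33 did not pass (limma interaction term, adjusted p = 0.11; 0.64 with consecutive numbers averaged). That of AT1G29070 was -2.85 within numbers 7 to 12, against -2.70 within numbers 1 to 6 (interaction -0.15 ± 0.87, limma adjusted p = 0.95). Without the 3 values listed at 0, which all lie in numbers 1 to 6, its interaction was -1.94 ± 0.35 (limma adjusted p = 0.021). Leaving out the lowest mutant values of numbers 1 to 6 alone pushes this interaction down by itself, so nothing is read from that p. With the floor at the 5th percentile the interaction was -1.23 ± 0.44 (limma adjusted p = 0.14). AT4G01310 and AT1G64510 had interactions of 0.28 ± 0.44 and -0.21 ± 0.74 (limma adjusted p = 0.78 and 0.92). Of all probes, 0.145% were called for this interaction. Within numbers 7 to 12 alone, where 15.4% of all probes were called lower, L34 and S10 were called lower, and so they were within numbers 1 to 6 alone, where 10.4% were. These calls repeat the comparison known when the genes were chosen, and nothing is read from them.

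Other genes of plastid translation were sparsely covered. Of 41 nuclear genes listed for plastid ribosomal proteins, 6 had a probe with exactly 1 gene name, 4 for the large and 2 for the small subunit. Besides the 4 genes above these were AT3G54210 (L17) and AT5G65220 (L29), both of the large subunit. Of the 6, 2 were called lower and 0 higher, against 15.9% and 18.8% of all probes, and the 2 calls are those of L34 and S10, which were chosen with their differences known. The median difference of the 5 genes given a difference was 0.05, against 0.10 for all probes.

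AT3G54210, the gene for L17, had intensities of 0.370 to 0.631 in the mutant, with a median of 0.452, and of 0.410 to 0.788 in wild type, with a median of 0.603. Its log2 difference was 0.12 ± 0.11 (limma adjusted p = 0.41), with 8 numbers higher and 4 lower in the mutant. Without normalization it was -0.37 ± 0.12 and passed as lower (limma adjusted p = 0.015). In that setting 1016 of the 3439 probes were called lower, against 548 with quantile normalization. The median of all probes was -0.24 without normalization. The call is therefore not read as specific to L17. AT5G65220, the gene for L29, was listed at 0 in 9 mutant and 11 wild type columns, so no difference is given.

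Of 25 genes for plastid translation factors and ribosome assembly, AT5G46420 alone had such a probe. It encodes a protein of the RimM family, whose bacterial relatives act in maturation of the small subunit. It was listed at 0 in 5 mutant and 4 wild type columns, and its log2 difference was 0.02 ± 0.48 (limma adjusted p = 0.98). None of 22 genes of plastid transcription had a probe with exactly 1 gene name.

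Likeness between transcripts was measured as Pearson's r over the 24 columns after the mean of each group was taken off, among 691 other probes with 1 gene name. The labels do not say whether columns share a preparation, and the division of the numbers runs through both groups, so these values describe the table. The nearest to AT1G29070 were AT1G49870 (r = 0.82), AT2G23390 (0.78) and RAP74 (0.78), a subunit of the general transcription factor TFIIF. Their r were 0.81, 0.71 and 0.72 with the mean of each division taken off as well. The 3 mutant values of AT1G29070 at the floor weigh heavily in these r, and the ranking was not repeated without them. AT1G49870 had a log2 difference of -0.45 ± 0.28, AT2G23390 of -1.27 ± 0.29 and RAP74 of -0.85 ± 0.24. The nearest to AT3G13120 were ATSIK (0.84), FATB (0.84), an acyl-ACP thioesterase of plastid fatty acid synthesis, and AT1G76450 (0.74). With the mean of each division taken off as well, these 3 had r of 0.70, 0.71 and 0.59. ATSIK had a log2 difference of -0.71 ± 0.21, FATB of 0.42 ± 0.30 and AT1G76450 of 0.63 ± 0.48.

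The nearest to AT4G01310 were PPDK (0.66), the pyruvate orthophosphate dikinase, AT1G79080 (0.65) and AT1G67800 (0.61). Their r were 0.60, 0.55 and 0.48 with the mean of each division taken off as well. In the same order their log2 differences were 0.90 ± 0.27, 0.79 ± 0.40 and 0.20 ± 0.16. The nearest to AT1G64510 were TCP15 (0.70), a transcription factor of the TCP family, AT3G55070 (0.59) and AT5G55570 (0.57). Their r were 0.69, 0.63 and 0.56 with the mean of each division taken off as well. In the same order their log2 differences were 0.91 ± 0.51, -1.37 ± 0.32 and -0.83 ± 0.55. No plastid ribosomal protein was among the 3 nearest of another. Only 6 plastid ribosomal proteins were measured, while each gene had 691 candidates. Such an absence was therefore likely in advance, and nothing on shared variation is read from it. L34 and S10, the 2 lower transcripts, had r = 0.10 with each other, and -0.24 with the mean of each division taken off. The 3 mutant values of L34 at the floor weigh heavily in these r, and r without them was not computed. These r therefore do not show that the 2 transcripts vary apart. In wild type both were higher over numbers 7 to 12 than over numbers 1 to 6, with ratios of 2.50 for L34 and 2.10 for S10. The highest r among the 4 genes was 0.35, between S10 and S6. It was 0.29 with the mean of each division taken off as well. The highest was then 0.31, between L5 and S10, which had r = -0.092 before that step. The closest pair therefore depended on the division.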

How the data were processed

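The deposited table held linear intensities of 3439 probes in 24 columns. The sources used here do not give how the authors made them or what array was used. Each column mean was close to 1, and 20 columns reached a shared ceiling of 100. Columns were assigned to groups by the titles in the labels. Of the probes, 692 had 1 gene name, 870 several and 1877 none in the platform's annotation, which may be out of date. Of the 692, 690 matched a table of the TAIR10.1 assembly. Coordinates and sequences were left out, as the probes have no named build.

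A floor was set at percentile 1 of the positive intensities (0.00971), and the log2 values were quantile-normalized between columns. Mutant minus wild type was fitted with limma 3.58.1 in R 4.3.3 (lmFit, eBayes, two-sided, Benjamini-Hochberg over all probes, threshold 0.05), with group as the only term. The interaction used group, division of the numbers and their product. The fits were also run on simulated data, and no result given here rests on that run. Columns of the same number in both groups deviated together (12 pairs, r from 0.14 to 0.40). The numbers were taken to pair the groups on this check alone, as no label states it. Columns of unequal number were not set beside these, and the division means were not taken off. The check therefore cannot show that equal numbers are pairs, and values taken number by number are a description.

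The genes and lists were chosen with earlier results of these data known. Named genes were the 4 genes, the measured genes of the lists, and the 3 nearest to each of the 4 by correlation. Alternatives were averaging, the replicate block, scaling, the floor, values at 0, dim probes, divisions, array weights and leaving out each column.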

Additional observations from a re-analysis of the deposited data

How the results depend on the processing

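The log2 differences of AT1G29070 and AT3G13120 lay between -3.17 and -1.90 and between -1.86 and -0.80 in 12 and 13 alternatives, and between -2.93 and -2.54 and between -1.43 and -1.25 without single columns. Both genes were chosen with these differences known, so the ranges describe the processing and are no support for the calls. With the replicate number as a block their differences stayed at -2.77 and -1.33, and the paired fits changed no call of the 4 genes. AT1G29070 and AT1G64510 had no value with dim probes left out, because they were among those removed.

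The number of probes called higher, 648, was 185 with consecutive numbers averaged (264 lower), 354 with these averages and the replicate block, 173 without normalization (1016 lower), 1053 with median centring, and 305 within numbers 1 to 6 (358 lower). With all columns and quantile normalization 548 were lower. The median of all probes was -0.24 without normalization and 0.31 with median centring.

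Signs of differences that were not called turned in several settings. AT4G01310 was -0.27 without normalization. AT1G64510 was -0.45 without normalization, -0.011 with cyclic loess, -0.072 with the higher floor and -0.056 within numbers 7 to 12, and ran from -0.19 to 0.22 when single columns were left out. AT3G54210 was -0.37 without normalization, the 1 call added among the other listed genes, and -0.0066 within numbers 7 to 12. AT5G46420 was -0.29 without normalization, -0.14 with cyclic loess, -0.73 within numbers 7 to 12 and -0.14 with array weights, and -0.21 to 0.20 without single columns.

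The interaction of AT1G64510 was 0.46 without normalization, 0.54 with median centring, 0.43 with cyclic loess, 0.18 with the higher floor, 0.23 without values at 0, and -0.55 to 0.26 without single columns. That of AT1G29070 was 0.019 with median centring, -1.23 with the higher floor, -1.94 without values at 0 and -0.53 to 0.32 without single columns. That of AT3G13120 was -1.29 and passed with dim probes left out, a filter (mean intensity of at least 0.326 over all columns) that the gene met through wild type, with means of 0.255 in the mutant and 0.921 in wild type. The cause of these shifts was not tested. The number of columns, and the lack of a measure of background, limit the precision.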
